A study of Mus musculus with 5 samples.

Results

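Genes that recruit neutrophils or raise their number were followed in mouse skin, the CXC chemokines Cxcl1, Cxcl2, Cxcl3, Cxcl5 and Ppbp, and the granulocyte growth factor Csf3. They were taken by name, as 6 of the 36716 genes in the count table, and all 6 were found. Expression was measured from the 3′ end of transcripts in 153 mice as unique molecular identifiers (UMIs), and levels are UMIs scaled to each mouse's total (CPM).

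Mice were female SKH-1 hairless animals, 7 to 8 weeks of age, and samples came from the upper back. Control mice received PBS on intact skin, and scratched mice received PBS after strokes with a metal brush. In further groups the fluid held nTiO2, nZnO or nAg, which are nanomaterials of titanium dioxide, zinc oxide and silver (the last coated with polyvinylpyrrolidone), again on intact or on scratched skin. One more treatment was brushing with no fluid, here called scratched only. Each of these 9 treatments was collected after 24 h and after 7 d from 8 mice, and 9 naive mice with no treatment carried no time point.

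Total counts per mouse were 201053 to 4028559 (median 1226021) and RNA integrity numbers 7.7 to 9.9. The lowest total was that of 7 d control replicate 3. The labels of 1 mouse, 7 d nZnO replicate 7, disagree on whether its skin was scratched, and it was used as intact. Libraries were sequenced in 5 pools. Every 24 h group was spread over 2 of pools 1 to 3, whereas at 7 d the control and nTiO2 mice were in pools 1 to 3 and all other groups in pools 4 and 5. Pool and scratching therefore cannot be told apart at 7 d for PBS and nTiO2. At 24 h the scratched and intact groups of each fluid had only 1 pool in common. Naive mice were in pools 1 and 2 (4 mice each), with 1 mouse in pool 5.

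CXC chemokines with a glutamate-leucine-arginine motif before their cysteines draw neutrophils out of the blood through the receptor CXCR2, and mice make Cxcl1, Cxcl2, Cxcl3 and Cxcl5 in keratinocytes, macrophages and other skin cells after injury. Ppbp encodes the precursor of CXCL7, which platelets store and which is trimmed to an active form. Csf3 encodes G-CSF, which drives the production of neutrophils in bone marrow. The chemokine genes are textbook targets of NF-κB, and their short-lived messages are a common readout of interleukin-1 signalling in skin.

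The 5 chemokine genes lie in one cluster of 146612 bases on chromosome 5 (GRCm39, Gencode M39, plus strand). Their order is Cxcl5 (90907186 to 90909483), Ppbp (90916371 to 90917930), Cxcl3 (90933962 to 90937459), Cxcl1 (91039094 to 91040974) and Cxcl2 (91051730 to 91053797). Csf3 lies apart on chromosome 11 (98592089 to 98594458, plus strand). The promoter, taken as 250 bases before to 50 bases after the start of the main transcript, held a match to the 10-base NF-κB consensus in 4 of the 6 genes. The 4 windows are printed because they separate Cxcl1, Cxcl2, Cxcl3 and Cxcl5 from Ppbp and Csf3. In addition, Cxcl3 shares this sequence with 3 genes whose levels it did not follow over the group means. Each window is read from the GRCm39 genome on the plus strand, with the match in capitals and 10 bases on either side.
Cxcl5: tccaagtccaGGGAATTTCCccagcatctt
Cxcl3: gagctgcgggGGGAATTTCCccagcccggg
Cxcl1: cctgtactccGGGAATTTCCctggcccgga
Cxcl2: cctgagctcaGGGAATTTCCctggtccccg

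The windows are chr5:90907119-90907148 for Cxcl5, chr5:90933877-90933906 for Cxcl3, chr5:91039023-91039052 for Cxcl1 and chr5:91051651-91051680 for Cxcl2. The match began 108, 75, 61 and 69 bases before the start in that order, and each had an overlapping match on the opposite strand, 1 base further on. A match on either strand was found in 1952 of 21770 protein-coding promoters of the same length (8.97%). Ppbp and Csf3 held no match to this consensus in the window. Ppbp held the letters TGANTCA, bound by AP-1 factors and present in 7.14% of promoters, as well as TATAAA, present in 13.2%. Cxcl3 also held TATAAA. These are matches of letters, and binding was not measured.

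At 24 h, 4 of the 5 chemokines that could be tested were higher in scratched than in intact skin. Averaged over PBS, nTiO2, nZnO and nAg, with 32 scratched and 32 intact mice, the rise was 3.51-fold for Cxcl5, 3.21-fold for Ppbp, 2.50-fold for Cxcl2 and 2.16-fold for Cxcl1. Cxcl3 did not rise and stood at 0.77-fold, a difference that was not called. Csf3 was too rare for this test and is described apart. A gene was called where edgeR's quasi-likelihood test gave a Benjamini-Hochberg adjusted p under 0.05 over all genes and the log2 fold change was at least 0.33 in size. In this comparison 6.27% of 11369 genes were called higher and 12.6% in either direction.

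Cxcl5, which in mice takes the place of the related human chemokines CXCL5 and CXCL6, separated the PBS groups completely. At 24 h it was 9.17 CPM in the lowest, 29.6 in the median and 46.4 in the highest control mouse, and 57.7, 112 and 144 CPM in scratched mice. All 8 scratched mice were above every control mouse. The log2 fold change was 1.95 (standard error 0.27, 95% interval 1.39 to 2.51, edgeR adjusted p = 4.76e-04), with means of 101 ± 33.0 and 25.6 ± 12.7 CPM (SD, n = 8 each).

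With nanomaterials, Cxcl5 in scratched skin reached higher single values but also lower ones. Scratched nTiO2 mice stood at 29.5, 88.2 and 304 CPM (lowest, median, highest) against 14.01, 31.4 and 82.8 CPM with nTiO2 on intact skin. Scratched nZnO mice stood at 19.4, 166 and 283 CPM against 6.16, 25.4 and 92.7, and scratched nAg mice at 36.4, 90.7 and 331 CPM against 13.5, 39.8 and 64.4. Of 8 scratched mice, 6 with nTiO2, 5 with nZnO and 5 with nAg were above every intact mouse with the same material. Brushing with no fluid gave 20.9, 73.2 and 285 CPM against 8.70, 18.3 and 37.2 in naive mice, and 7 of 8 were above all naive mice.

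Cxcl5 was called in each of these comparisons. The log2 fold change was 1.60 with nTiO2 (standard error 0.39, adjusted p = 0.0346), 2.11 with nZnO (0.56, 0.0322), 1.62 with nAg (0.40, 0.0437) and 2.29 for scratched only against naive (0.40, 0.00345), all from edgeR. The call with nTiO2 was lost when any of 8 single mice was left out, with nZnO for any of 10 and with nAg for any of 12, at adjusted p up to 0.0986. It was kept for PBS and for scratched only whichever mouse was left out.

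Cxcl2, made by macrophages, neutrophils and keratinocytes and a strong attractant of neutrophils, rose less and overlapped more. Control mice at 24 h stood at 6.11, 35.9 and 61.3 CPM (lowest, median, highest) and scratched mice at 52.4, 73.5 and 150 CPM. Here 6 of 8 scratched mice were above all controls. The log2 fold change was 1.24 (standard error 0.29, 95% interval 0.63 to 1.84, edgeR adjusted p = 0.0212), and without scratched replicate 1, the highest mouse, the adjusted p was 0.0542.

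For Cxcl2 the brushed mice without fluid ran from 50.8 through 92.0 to 350 CPM, and naive mice from 14.1 through 41.7 to 84.0 CPM. With nZnO, scratched mice ran from 42.1 through 111 to 439 CPM and intact mice from 16.0 through 39.7 to 67.0 CPM. Both differences were called by edgeR, with log2 fold changes of 1.61 (standard error 0.37, adjusted p = 0.0193) and 1.72 (0.41, 0.0205). The Cxcl2 values with nTiO2 (25.2, 81.0 and 447 CPM scratched, 19.6, 39.6 and 130 intact) and nAg (21.2, 61.4 and 262 scratched, 20.7, 43.7 and 92.0 intact) overlapped widely. These 2 differences, 1.35 and 0.97 on the log2 scale, were not called (adjusted p = 0.147 and 0.284).

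Cxcl1, first described as the mouse keratinocyte-derived chemokine, had 24 h control values of 4.17, 15.5 and 28.9 CPM (lowest, median, highest) and scratched values of 23.6, 36.8 and 60.8 CPM. Of the scratched mice, 5 of 8 were above all controls. The log2 fold change was 1.21 (standard error 0.28, 95% interval 0.63 to 1.78, edgeR adjusted p = 0.0184). Cxcl1 was not called with nTiO2 (1.02, adjusted p = 0.213), nZnO (1.36, 0.0614), nAg (0.89, 0.305) or for scratched only against naive (1.26, 0.157). In scratched only mice the highest Cxcl1 value was 132 CPM and the median 14.8 CPM, next to a naive median of 14.2 CPM, and without that mouse, replicate 1, the log2 fold change was 0.59.

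Ppbp ranged widely between mice of a scratched group. Control mice at 24 h stood at 3.82, 9.31 and 22.1 CPM and scratched mice at 9.58, 33.2 and 167 CPM (lowest, median, highest), and 5 of 8 scratched mice were above all controls. The log2 fold change was 2.13 (standard error 0.54, 95% interval 1.01 to 3.25, edgeR adjusted p = 0.0324), and leaving out any of 7 single mice raised the adjusted p to between 0.0527 and 0.0669. Without scratched replicate 2, the highest mouse, the log2 fold change was 1.51. Ppbp was not called with nTiO2 (1.43, adjusted p = 0.156), nZnO (2.16, 0.0568), nAg (0.89, 0.215) or for scratched only (1.67, 0.103). In each of these 4 scratched groups, 3 of 8 mice were above all intact or naive mice. Without the highest mouse, the log2 fold change was 1.10 with nZnO (replicate 4), 0.90 for scratched only (replicate 1) and 0.66 with nTiO2 (replicate 1).

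For PBS at 24 h the 4 calls compare with 3.39% of 11872 genes called in either direction and 1.89% called higher. With all 24 h groups in 1 fit, Cxcl1 and Cxcl2 had the same log2 fold changes for PBS (1.21 and 1.23) but were not called (adjusted p = 0.139 and 0.144), and Cxcl5 and Ppbp were. In the other 24 h comparisons the share of genes called was 2.15% with nTiO2 and 1 chemokine was called, 5.33% with nZnO and 2 were called, 1.51% with nAg and 1 was called, and 2.93% for scratched only and 2 were called. With sequencing pool as a covariate Cxcl5 was not called with nTiO2 or nAg, at log2 fold changes that were no smaller (1.94, adjusted p = 0.0876, and 1.81, adjusted p = 0.105), whereas with nZnO and for scratched only 4 chemokines were called. All 4 averaged calls were kept in each of the 8 alternatives run for them. Leaving out each mouse in turn was not among these.

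**Figure D1:**
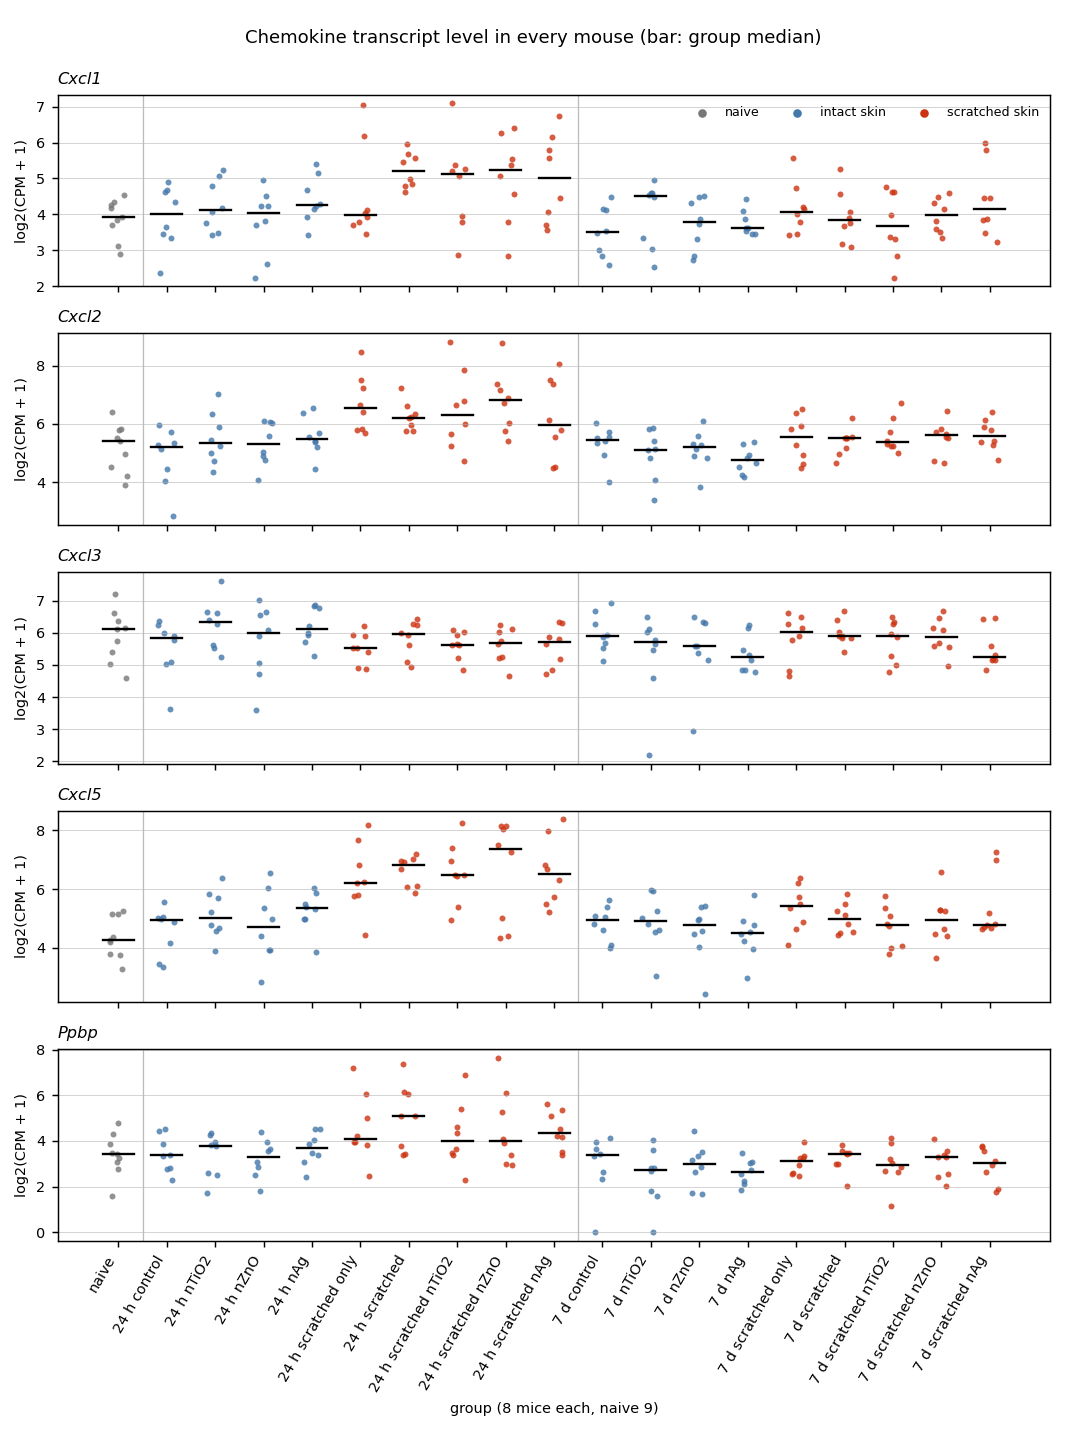
Expression of Cxcl1, Cxcl2, Cxcl3, Cxcl5 and Ppbp in each of 153 mice, as log2(CPM + 1), by group (grey naive, blue intact, red scratched, bars the group median). Scratched groups at 24 h reach above the intact groups for Cxcl1, Cxcl2, Cxcl5 and Ppbp and not for Cxcl3, and the 7 d groups overlap.

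**Figure D2:**
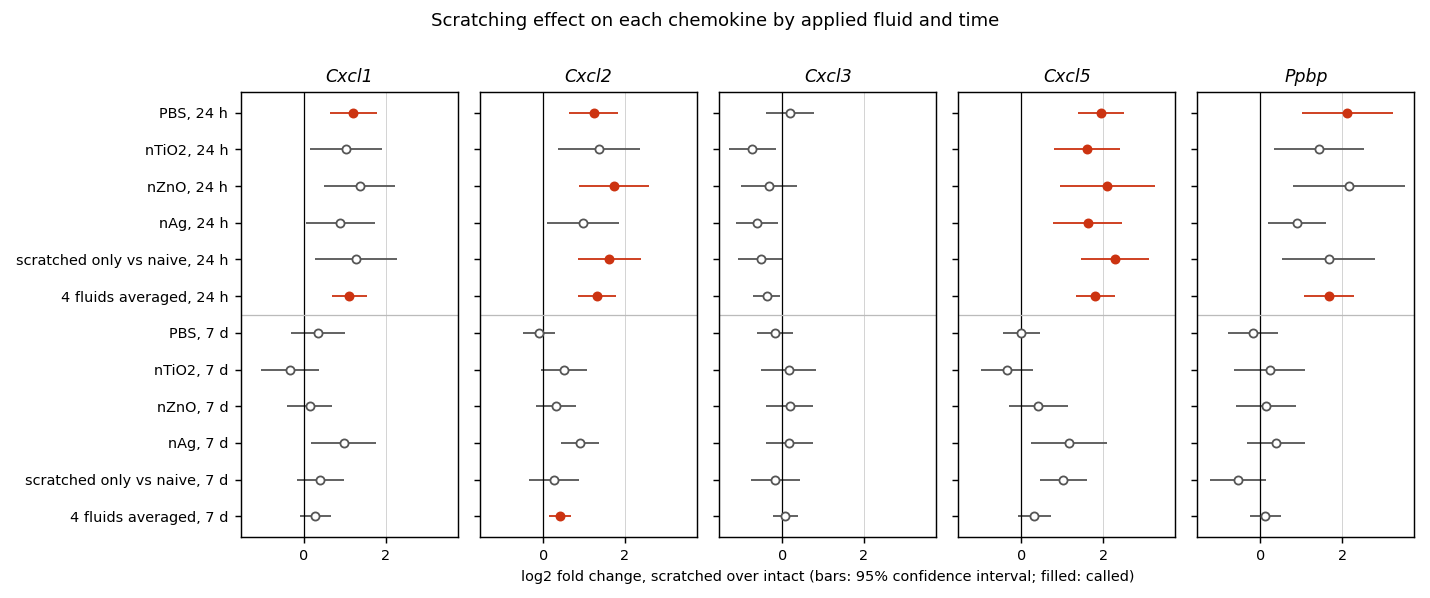
Log2 fold change of scratched over intact skin for 5 chemokines in each comparison, with 95% intervals from edgeR and filled points where the change was called. At 24 h Cxcl5 is filled in every row, and Cxcl3 lies at or below 0 in all rows except PBS.

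Cxcl3 behaved otherwise. It encodes a close relative of Cxcl2, and at 24 h its control values of 11.4, 56.2 and 81.3 CPM (lowest, median, highest) overlapped with scratched values of 29.9, 61.5 and 84.8 CPM. Only 1 scratched mouse was above all controls. The difference was 0.19 on the log2 scale (95% interval −0.41 to 0.78, edgeR adjusted p = 0.796).

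In the other pairs the Cxcl3 median was lower in scratched than in intact skin. It was 48.6 against 80.4 CPM with nTiO2, 50.7 against 62.9 CPM with nZnO and 51.9 against 68.6 CPM with nAg. It was 45.4 CPM in scratched only mice and 68.5 CPM in naive mice. No scratched mouse of these 4 groups was above all its intact or naive mice. None of these differences was called (log2 fold change −0.73, −0.33, −0.62 and −0.53, adjusted p = 0.173 to 0.602). The averaged value was −0.38 (95% interval −0.71 to −0.06, adjusted p = 0.0708), and it was called lower with pool as a covariate (−0.41, adjusted p = 0.0488).

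The gap between Cxcl3 and its neighbours was also taken within each mouse, as the log2 ratio of a chemokine to Cxcl3, a comparison chosen after the values were seen. At 24 h over the 4 applied fluids, the Cxcl5 to Cxcl3 ratio averaged 0.92 ± 1.03 on the log2 scale in 32 scratched mice and −0.99 ± 0.76 in 32 intact mice, a difference of 1.92. The difference was 1.41 for Ppbp, 1.36 for Cxcl2 and 1.18 for Cxcl1. Since the genes were paired for this pattern, these ratios are a description and no test of them is given. Because Cxcl2 and Cxcl3 are similar in sequence, their transcripts were compared. They share 49 windows of 62 bases, the length of the sequenced read, 939 to 987 bases from the 3′ end in Cxcl2 and 850 to 898 bases from it in Cxcl3. No other pair of the 6 genes shared any, and reads in shared windows cannot be assigned to either gene.

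**Figure D3:**
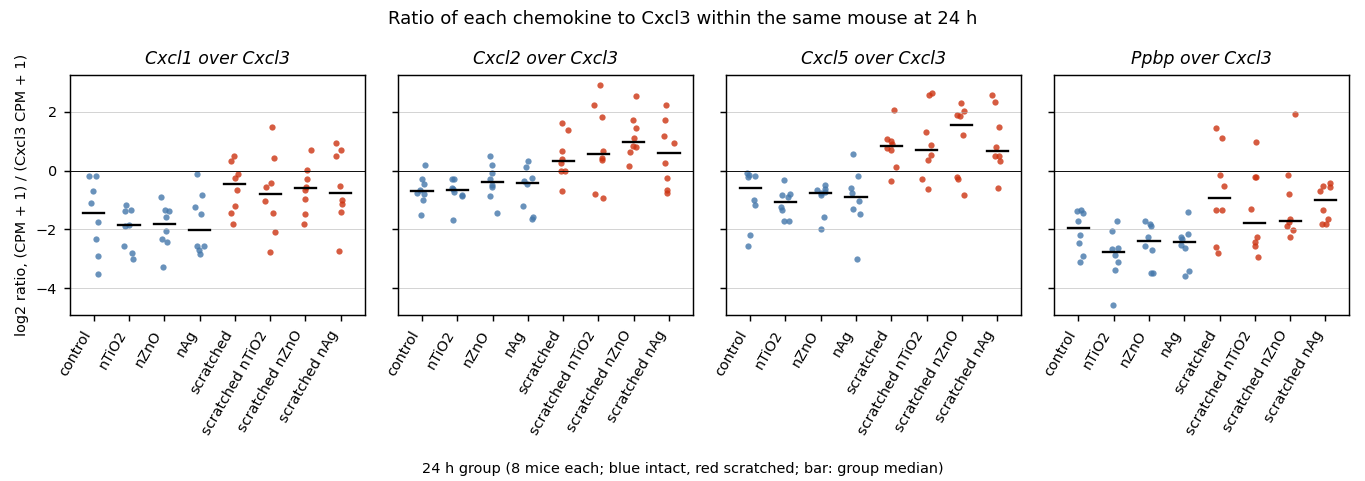
Log2 ratio of Cxcl1, Cxcl2, Cxcl5 and Ppbp to Cxcl3 within each mouse at 24 h, for 8 groups (blue intact, red scratched, bars the group median). Ratios are higher in scratched skin for every gene, on average by 1.18 for Cxcl1 to 1.92 for Cxcl5.

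Csf3 was close to the limit of detection: 20 UMIs were found in 10 of 153 mice, and it passed the filter on low counts in no comparison. At 24 h, 8 of 40 scratched mice had a UMI (18 in all, 0.353 CPM of their pooled total), and 0 of 32 intact mice did. A count of 0 allows up to 0.0729 CPM in the pooled intact mice. The pooled level in scratched mice was 4.84-fold that limit, with no allowance for the counting error of its 18 UMIs. The share of mice differed by Fisher's exact test (two-sided, p = 0.0073), and also over the 4 applied fluids alone (6 of 32 against 0 of 32 mice, exact p = 0.0242).

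The scratched mice with Csf3 were 4 with nZnO (8 UMIs), 2 scratched only (2 UMIs), 1 with nTiO2 (4 UMIs), 1 with nAg (4 UMIs) and none with PBS. At 7 d there was 1 UMI in 40 scratched and 1 in 32 intact mice. The 9 naive mice had 0, which allows up to 0.282 CPM. These limits cover counting error only.

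No change of the chemokines with a nanomaterial beyond that with PBS was detected. In scratched skin, PBS against no fluid and each nanomaterial against PBS gave 40 values at both times, from −1.01 to 0.84 on the log2 scale, and edgeR called 0 of them (lowest adjusted p = 0.864, with 1 at an unadjusted p under 0.05 and 0 called by DESeq2). On intact skin the 37 values lay between −0.71 and 0.71, and 0 were called (lowest adjusted p = 0.108, with 5 at an unadjusted p under 0.05 and 0 called by DESeq2). Among all genes, 0.692% were called for PBS against naive at 24 h and 0.24% at 7 d. For the nanomaterials on intact skin, 0% were called at 24 h (nTiO2, nZnO and nAg), and at 7 d 0%, 0.0442% and 0.0859%. In scratched skin 0% were called in every such comparison except nAg at 7 d, at 0.00835%. On intact skin at 7 d, the nZnO and nAg mice shared no pool with the control mice. Pool and material cannot be told apart there.

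The scratching effect with each nanomaterial was also tested against that with PBS. Of 30 values, from −1.24 to 1.16 on the log2 scale, edgeR called 0 (lowest adjusted p = 0.176) with 3 at an unadjusted p under 0.05 and 0 called by DESeq2. At 24 h these tests called 0% of all genes for each material (541 genes with nTiO2, 687 with nZnO and 586 with nAg had an unadjusted p under 0.05), and at 7 d 0%, 0.00828% and 0.115%. The values that differ between materials above are therefore not shown to differ between them. With nZnO and nAg at 7 d these tests also compare pools, since only the intact PBS mice were in pools 1 to 3.

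By 7 d the scratched and intact groups overlapped, shown here by the PBS pair, which shared no pool. Cxcl5 had medians of 30.7 CPM in scratched and 29.9 CPM in control mice, Cxcl2 of 44.4 and 42.7 CPM, Cxcl1 of 13.3 and 10.3 CPM, Cxcl3 of 58.7 and 59.1 CPM, and Ppbp of 9.87 and 9.39 CPM. Of 25 pairwise values at 7 d edgeR called 0, with 4 at an unadjusted p under 0.05 and 1 called by DESeq2. The values ran from −0.54 to 1.17 on the log2 scale. The highest was Cxcl5 with nAg. Its lowest, median and highest levels were 24.1, 26.7 and 151 CPM in scratched and 6.88, 21.7 and 54.3 CPM in intact mice. Cxcl1 with nAg was 1.95-fold higher in scratched skin. The share of all genes called was 0% for PBS (1302 with an unadjusted p under 0.05), 0.135% with nTiO2, 0.944% with nZnO, 0.611% with nAg and 1.23% for scratched only.

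The values closest to a call at 7 d were Cxcl2 with nAg and Cxcl5 in scratched only mice. Cxcl2 stood at 25.9, 47.9 and 83.8 CPM (lowest, median, highest) in scratched nAg mice and at 17.1, 25.9 and 40.8 CPM with nAg on intact skin, and 5 of 8 scratched mice were above all intact ones. The log2 fold change was 0.90 (edgeR adjusted p = 0.0654), and DESeq2 called it. Cxcl5 in scratched only mice was 16.3, 41.9 and 82.6 CPM, and 5 of 8 were above the highest naive mouse (log2 fold change 1.03, adjusted p = 0.0692).

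Averaged over the 4 fluids at 7 d, Cxcl2 alone of the 5 was called, at 0.40 on the log2 scale (standard error 0.13, edgeR adjusted p = 0.0374). The other 4 lay between 0.08 and 0.32 (adjusted p = 0.322 to 0.806). In this comparison 3.28% of genes were called higher and 4.33% in either direction. Without the filter on low counts Cxcl2 stood at 0.42 and just missed the threshold (adjusted p = 0.0509).

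The scratching effect itself was smaller at 7 d than at 24 h for 3 of the 5. The difference on the log2 scale was −1.56 for Ppbp (standard error 0.40, edgeR adjusted p = 0.0054), −1.50 for Cxcl5 (0.32, 6.61e-04) and −0.92 for Cxcl2 (0.28, 0.0223). Cxcl1 (−0.83, adjusted p = 0.0628) and Cxcl3 (0.46, 0.21) were not called. Among all genes, 6.04% were called and 2.73% were called lower. None of the 3 calls was kept with pool as a covariate (Ppbp −1.48, Cxcl5 −0.99, Cxcl2 −0.70, adjusted p = 0.0974 to 0.301). The same held with nZnO and nAg alone, where scratched and intact mice share pools (−1.33, −1.07 and −0.76, adjusted p = 0.174 to 0.310). The scratched and intact mice of PBS and nTiO2 were in separate pools at 7 d.

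Within single treatments, 12 of 45 values at 7 d against 24 h were called, and all 12 were lower at 7 d. In scratched PBS mice, Ppbp fell by 2.50 on the log2 scale (edgeR adjusted p = 0.0086), Cxcl5 by 1.65 (2.72e-04), Cxcl1 by 1.27 (0.0084) and Cxcl2 by 0.93 (0.0126), where 4.42% of genes were called. The same 4 were called in scratched nZnO mice, where 5.6% were. Cxcl5 alone was called in scratched nTiO2 mice and Ppbp alone in scratched nAg mice, where 1.12% and 0.591% of genes were. Scratched only mice had 0 calls from edgeR and 1 from DESeq2 (1.47%). On intact skin, control, nTiO2 and nZnO mice had 0 calls by either tool (0%, 0.765% and 0.207%), while nAg mice had lower Cxcl2 (−0.91, adjusted p = 0.0322) and Ppbp (−1.19, 0.0304), where 3.35% of genes were called. Only the control and nTiO2 groups on intact skin were in pools 1 to 3 at both times, and for the others pool and time cannot be told apart.

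Of 4 receptors of these ligands, 2 were called higher at 24 h. Averaged over the 4 fluids, Cxcr2, the shared receptor of the CXC members, rose by 1.20 on the log2 scale (standard error 0.19, edgeR adjusted p = 2.18e-06), and Csf3r, the receptor of G-CSF, by 1.19 (0.22, 3.00e-05). Ackr1, which binds chemokines on venules without signalling, was tested and not called (−0.16). Cxcr1 did not pass the filter. These are bulk samples, in which more cells of a type and more RNA per cell cannot be told apart.

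Other CXC chemokines moved in part with them. Of 7 tested of 10, 3 rose, namely Pf4 (a platelet chemokine beside Ppbp, 0.71), Cxcl10 (an interferon-induced ligand of CXCR3, 1.74) and Cxcl12 (a ligand of CXCR4, 0.33), and Cxcl13, a B cell attractant, fell by 0.52. Of the cytokines that induce the chemokines, 6 of 16 passed the filter and 2 rose, Il1b by 0.83 and the alarmin Il33 by 0.80. Of 15 regulators of NF-κB and mRNA decay, all tested, 2 rose, Nfkbiz by 0.51 and the adaptor Myd88 by 0.34, a share near the 12.6% of all genes called in either direction (6.27% higher). The median change over all genes was −0.002, and it was 0.33, 0.20 and −0.06 over these 3 lists.

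Markers of several cell types differed between the same mice. Of 17 neutrophil markers 11 were tested, 5 rose and 2 fell. Mmp8 (a neutrophil collagenase, 1.81), Stfa2l1 (a stefin, 1.77) and Trem1 (a myeloid activating receptor, 1.75) led the rises, while the decoy receptor Il1r2 fell by 0.58 and the granule enzyme Mpo by 1.21. For the PBS pair alone, the sum of the 17 markers at 24 h was 281 to 549 CPM in control mice and 477 to 634 CPM in scratched mice. The median log2 fold change of the 11 tested markers was 0.74 for PBS and 0.28 averaged over the 4 fluids. Elane, with a mean of only 0.21 CPM over all mice, was at 0 in all PBS controls. Lcn2, S100a9 and S100a8, which neutrophils and stressed keratinocytes share, rose by 1.65, 1.21 and 0.88.

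The other lists are given by their counts. Of 5 wounded keratinocyte markers 4 rose, led by Krt6b at 2.50 and Krt16 at 1.57. For the PBS pair alone, their sum was 1627 to 5449 CPM in control and 3137 to 10044 CPM in scratched mice. Of 11 monocyte and macrophage markers 6 rose, led by Ly6c2 at 1.90, Fcgr1 at 1.55 and Ms4a6c at 0.85. Their sum, again for the PBS pair alone, was 3037 to 4703 CPM in control and 3629 to 5984 CPM in scratched mice. Of 5 T cell markers 4 fell, among them Cd3d by 0.85 and Cd3g by 0.78. Trbc2 went the other way, at 0.28 (edgeR adjusted p = 1.21e-05), and was too small a change to be called.

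Platelet markers give no common direction. Of 11 genes listed 10 were in the count table and 3 were tested. Pf4 rose and Itga2b, an integrin of platelets and mast cells, fell by 0.43. For the PBS pair alone, the list sum was 328 to 823 CPM in control and 653 to 1122 CPM in scratched mice, nearly all of it Pf4. Treml1 and Gp6 were at 0 in all scratched mice of this pair. Their means over all mice were only 0.0186 and 0.0153 CPM, so a 0 there shows no difference between groups. Mast cell markers had 1 rise and 2 falls of 5, fibroblast markers 1 and 1 of 5, endothelial markers 1 rise of 5 tested (Selp, 0.76) and keratinocyte markers 1 of 6. No marker of skeletal muscle (5 tested) or red cells (3 tested) was called, and none of hair shaft passed the filter of the averaged comparison. For PBS alone, 4 hair shaft keratins were tested and not called, at log2 fold changes of −2.66 for Krt81, −2.29 for Krt35, −2.20 for Krt31 and −2.11 for Krt33b (edgeR adjusted p = 0.0902 to 0.17). Their sum was 3.82 to 464 CPM in control and 0 to 117 CPM in scratched mice. The part of these cell types in the chemokine changes was not tested.

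Over the 19 group means, the gene most like each member was found among 10025 genes by Pearson's r, given here as a description over groups that share sequencing pools. Cxcl5 was closest to S100a9 (0.98), Stfa2l1 (0.97) and S100a8 (0.97), and Cxcl1 to S100a9 and Cxcl5 (0.97 each). Cxcl2 was closest to Cstdc4 (0.98), Ccr1 (0.97) and Stfa2l1 (0.97), and Ppbp to Cyp1b1, Tspan3, Tgfbi, Pf4 and Wfdc17 (0.96 each). Cxcl3 was closest to Fn1 (0.92), followed by Hs1bp3 (0.85), and its r with the other members was −0.15 to −0.30.

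Between mice of the same group, the levels of Cxcl1, Cxcl2, Cxcl3 and Cxcl5 went together with the summed neutrophil markers at 24 h, in scratched and in intact skin, and Ppbp was not taken into this comparison. Most of the sum is carried by Clec4d (a mean of 122 CPM over all mice), Retnlg (76.2), Clec4e (75.6), Il1r2 (72.1) and Mmp9 (56.8), of which Clec4d was called higher and Il1r2 lower in scratched skin. Mmp8, Trem1 and Stfa2l1, which led the rises, add 8.96, 7.16 and 14.5 CPM. Both were taken on the log2(CPM + 1) scale as deviations from the group mean, and both come from the same library. In 40 scratched mice Pearson's r was 0.86 for Cxcl2 (Spearman's rho 0.80), 0.78 for Cxcl5 (0.75) and 0.77 for Cxcl1 (0.74), each r and rho with a permutation p of 1e-05, the smallest that 100000 resamples allow, or 1.6e-05 adjusted over 8 relations. For Cxcl3 r was 0.63 (permutation p = 5e-05, adjusted 5.71e-05) and rho 0.67 (permutation p = 3e-05, adjusted 4e-05). Without the 2 mice farthest from the median, r was 0.82, 0.75, 0.73 and 0.63 in that order. The r of other genes with this sum was not computed. The p-values therefore do not set the chemokines apart from other genes.

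In 32 intact mice r was 0.86 for Cxcl3 (rho 0.82), 0.79 for Cxcl2 (0.81), 0.74 for Cxcl5 (0.67) and 0.56 for Cxcl1 (0.48), with permutation p for r of 1e-05, 1e-05, 3e-05 and 0.00262 (adjusted 1.6e-05, 1.6e-05, 4e-05 and 0.00262). For rho the adjusted permutation p was 1.6e-05 for Cxcl3 and Cxcl2, 2.4e-04 for Cxcl5 and 0.0104 for Cxcl1. Without the 2 farthest mice r was 0.78, 0.74, 0.63 and 0.40. Thus Cxcl3, which did not separate scratched from intact groups, still varied with these markers from mouse to mouse. Within pools 1, 2 and 3, r for Cxcl3 was 0.94, 0.92 and 0.69 in intact mice and 0.48, 0.82 and 0.41 in scratched mice. For Cxcl5 it was 0.89, 0.83 and 0.54 in intact and 0.81, 0.76 and 0.75 in scratched mice, for Cxcl1 0.65, 0.68 and 0.80 and then 0.74, 0.79 and 0.53, and for Cxcl2 0.83, 0.84 and 0.77 and then 0.81, 0.85 and 0.86.

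**Figure D4:**
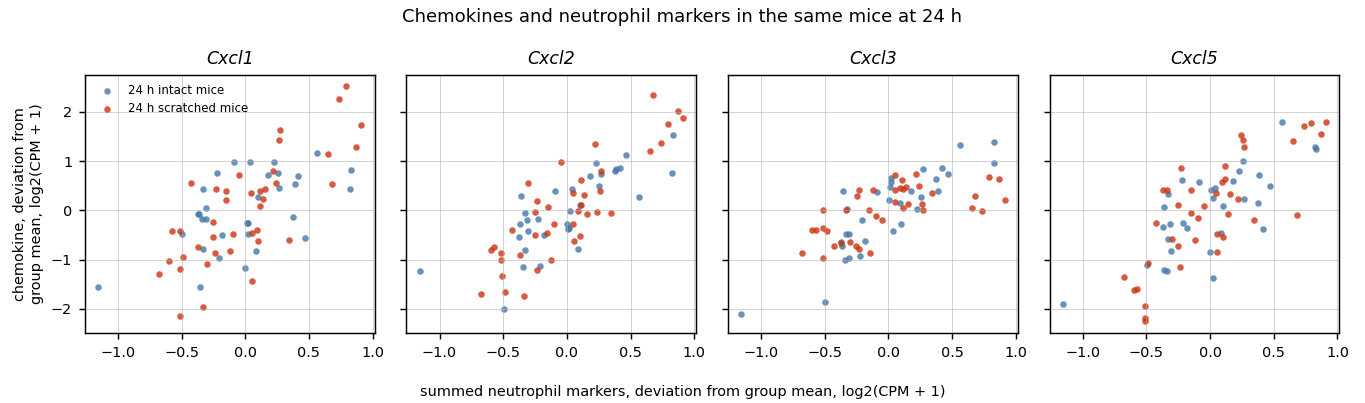
Deviation of each mouse from its group mean at 24 h, on the log2(CPM + 1) scale, for the summed neutrophil markers (horizontal axis) and 4 chemokines (vertical axis), with 40 scratched mice in red and 32 intact mice in blue. The points rise together in every panel, with r from 0.56 to 0.86.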

How the data were processed

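Counts were made by the authors from 3′ libraries: reads were trimmed with Trimmomatic, aligned to GRCm39 with STAR, and UMIs of uniquely aligned reads were counted with Drop-seq tools. The deposited table holds these raw counts for 36716 genes in 153 mice, and every mouse was kept. The deposited barcode table gives the RNA integrity number as a score.

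The members and the 17 lists of related genes and markers were chosen with earlier results of these data known. Tests were edgeR 4.0.16 quasi-likelihood tests after TMM normalisation, run in R 4.3.3. Each pairwise comparison used its own groups, keeping genes that exceeded 5 counts in 75% or more of either group's mice. An averaged effect was a common scratching term in an additive model with applied fluid. The difference between times was the term for scratching by time, with fluid by time in the model. Neither had a term for scratching by fluid. Nanomaterial against PBS was tested by the term for scratching by material. Named list genes were up to 4 per list with the smallest p, further called neutrophil markers, markers at 0 in a group, and the 5 genes of highest r for each member. Levels are CPM, and ± is the SD. Same-group mice were compared and no pair was identical. Mice were taken as independent samples, with no term for cage. Other settings were DESeq2 1.42.0, RLE size factors, no filter, a log2 threshold of 1, all groups of a time in 1 fit and pool as covariate, with 5 more chosen after seeing the data. Each mouse was also left out in turn, only for the pairwise scratching comparisons at 24 h. Scripts were tested on simulated data. Promoters and transcripts came from the GRCm39 genome with Gencode M39, later than the annotation used for counting.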

Additional observations from a re-analysis of the deposited data

Results flagged for a closer look

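In 14 of 95 sets of a gene and a group, the highest mouse lay unusually far from the next by Dixon's test on CPM. Normally distributed values would give an outlier in about 1 set of 20. Whether CPM follow that distribution was not tested. For Cxcl1 these were 24 h scratched nTiO2 replicate 3 (136 CPM) and 7 d scratched only replicate 1 (46.4 CPM). For Cxcl2 they were replicate 1 of the 24 h scratched only (350.3 CPM), scratched (150 CPM) and scratched nZnO groups (439 CPM), and 7 d scratched replicate 5 (73.5 CPM). For Cxcl3 it was 24 h nTiO2 replicate 2 (197 CPM), the highest value of this gene, and for Cxcl5 7 d scratched nZnO replicate 8 (95.2 CPM).

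For Ppbp they were at 24 h scratched only replicate 1 (145 CPM), scratched replicate 2 (167 CPM), scratched nTiO2 replicate 1 (118 CPM) and scratched nZnO replicate 4 (199 CPM). At 7 d they were nZnO replicate 4 (20.9 CPM) and scratched only replicate 6 (14.4 CPM).

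The difference of the scratching effect between the times passed edgeR's test for Cxcl2 (−0.92 at 7 d against 24 h on the log2 scale), Cxcl5 (−1.50) and Ppbp (−1.56) without pool in the model. None of the 3 passed with pool as covariate (adjusted p = 0.0974 to 0.301) or in the nZnO and nAg groups alone (adjusted p = 0.174 to 0.310).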

How the results depend on the processing

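Of 465 values of single genes under other settings, 431 kept their direction and side of the threshold, 13 lost a call, 14 gained one and 7 changed sign, none of these 7 past the threshold. With pool as covariate the sign changed for scratched only against naive at 7 d, where 1 naive mouse shares a pool (Cxcl1 −0.15, Cxcl2 −0.48, Cxcl3 0.35, Ppbp 1.39), and for Cxcl3 with nZnO at 24 h (0.14). Cxcl5 for PBS at 7 d became −0.026 without the mouse of the lowest total and was just below 0 (−3e-04) with all groups in 1 fit. With pool as covariate the number of chemokines called became 4 for scratched only at 24 h, 4 with nZnO and 0 with nTiO2 and nAg at 24 h, and 0 for 7 d against 24 h. It was also 0 for 7 d against 24 h with the nZnO and nAg groups alone. With all groups in 1 fit it became 2 for PBS and 0 for nAg at 24 h. Without the filter it became 4 for nZnO at 24 h, 1 for nAg and 1 for scratched only at 7 d, and 0 for the averaged 7 d effect. That effect also had 0 at a log2 threshold of 1. DESeq2 gave 1 for nAg at 7 d. Within pool 3, r was 0.80 for Cxcl1 and 0.54 for Cxcl5 in intact mice, and 0.53 for Cxcl1 and 0.41 for Cxcl3 in scratched mice. The cause of these changes was not tested.

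With each mouse left out in turn at 24 h, the number called was 3 to 4 for PBS, 0 to 1 with nTiO2, 1 to 4 with nZnO, 0 to 1 with nAg and 2 to 3 for scratched only. Of 405 such values for single genes, 38 lost a call, 8 gained one and 0 changed sign. The Cxcl1 value for scratched only against naive at 24 h, not called, was 1.26 with edgeR and 0.51 with DESeq2. Pool as covariate could not be fitted for PBS and nTiO2 at 7 d. No paired analysis was possible because replicate numbers pair no mice across groups. Ppbp, with group medians down to 5.23 CPM, and Csf3 rest on few UMIs per mouse.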
